A study of Mus musculus with 6 samples.

Results

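T cell receptor complex and cytotoxic genes were followed in mouse liver through 10 genes: Cd3d, Cd3e and Cd3g, which encode signalling chains of the T cell receptor complex, the co-receptors Cd4 and Cd8a, the surface receptors Cd2 and Cd6, and Gzma, Prf1 and Nkg7 of cytotoxic granules. Members were all non-control probes that the array files name for one of these genes, which gave 15 of the 39429 probes, for 10 of the 31896 gene names, on the array. Cd4, Cd8a, Cd2, Cd6 and Nkg7 had 2 probes each and the other genes 1, and probes of a gene share their target, so they are not replicates. The tissue was the non-tumor region of livers from 6 male C57BL/6 mice, aged 5 weeks when feeding began, with 3 mice on a control diet and 3 on a diet with moderately restricted carbohydrate. Mice of both groups carried a transposon vector with HrasG12V, shp53 and GFP4, delivered to the liver by hydrodynamic injection into the tail vein, and developed liver cancer from it. The sample labels give 1 week of feeding before injection and 5 weeks of diet, while the series text gives 2 and 4 weeks. The title and design of the series also add phytochemicals that mimic calorie restriction (MCDmp) to the diet, which the sample labels do not mention. Both groups are therefore models of tissue next to vector-induced tumours, neither has a counterpart without the vector, and RNA came from whole tissue with no sorting of cells.

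The T cell receptor recognises peptides on other cells but cannot signal by itself: the CD3 chains and the zeta chain (Cd247) carry the motifs that the kinase Lck phosphorylates and to which the kinase Zap70 binds. CD4 and CD8 bind MHC molecules and bring Lck to the receptor, while CD2 and CD6 bind partners on the opposing cell and tune the contact. Cytotoxic T cells and NK cells kill by releasing granules that hold perforin, which forms pores, and granzymes, which are proteases. The liver holds many T cells and NK cells, along with Kupffer cells, the resident macrophages of its sinusoids.

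The probes are shown first because probes of 1 gene gave different answers below. Each is 60 bases long and was read from the deposited array files, and coordinates are those of the files, on mm9. For 5 genes the stretch nearer the 5′ end of the transcript is called the internal probe and the other the 3′ probe, by the start position that the files record. Whether a probe lies in coding sequence or in a UTR was not looked up, since no mm9 annotation was used. These are 5 probes whole, of which those of Cd3d, Cd2 and Cd6 span more than 60 bases of the genome (232, 3180 and 1257 bases) and so cross an intron.
Cd3d: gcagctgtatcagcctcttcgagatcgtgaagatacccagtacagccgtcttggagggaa
Cd4 internal probe: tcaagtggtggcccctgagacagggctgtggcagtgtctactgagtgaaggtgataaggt
Cd2 internal probe: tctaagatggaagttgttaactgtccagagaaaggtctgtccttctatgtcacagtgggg
Cd6 internal probe: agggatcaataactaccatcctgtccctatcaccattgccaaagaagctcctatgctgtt
Nkg7 internal probe: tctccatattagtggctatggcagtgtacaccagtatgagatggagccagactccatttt

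For the probes at the 3′ ends of transcripts the last 30 bases are given, with the polyadenylation signal hexamers AATAAA and ATTAAA in capitals, since such a hexamer places a probe close to the end of an mRNA.
Cd3e: taatgcaaaaggcAATAAAgtgtattggct
Cd3g: agaactgtcaaagaaattttggtctttttt
Cd4 3′ probe: acagaaaAATAAAggctataAATAAAatgc
Cd8a 3′ probe: tctatctattgttactatcattttatacct
Cd2 3′ probe: tccAATAAAaagctgtgtggatttatcttc
Cd6 3′ probe: cagagATTAAAcgattactgagtgaaaact
Gzma: gtctgatcacaAATAAAatcaacttgaatg
Nkg7 3′ probe: ccaccttgccttatccttcattggtttctt
One of the hexamers occurred, on the probe's own strand, in 5 of the 15 member probes (33.3%) and in 6602 of all 39429 probes (16.7%). The hexamer did not separate the outcomes: probes with one include those of Cd2 and Cd6 that fell and those of Cd3e, Cd4 and Gzma that did not pass the test.

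Values are log2 of the processed signal minus log2 of the 75th percentile of the same array, so a value of 0 is the signal at that percentile, and a difference is the restricted minus the control mean. The 75th percentile of signal was 287 to 574 on the 6 arrays, and 23527 to 25815 probes per array were well above background. Of all probes, 24234 were tested because they were well above background on every array of at least 1 diet. A probe was called at an adjusted p (limma's moderated test, Benjamini-Hochberg over all probes tested) under 0.05. By that rule 12.6% of all tested probes were lower on the restricted diet, 14.1% were higher, and the median of all tested probes was 0.12. The control mice and restricted mouse 1 shared the first of 2 slides, and restricted mice 2 and 3 were on the second. Values with the slide as a block are therefore given beside the calls, and they equal the contrast of restricted mouse 1 with the control mice. Such values rest on 1 restricted mouse, whose spread is taken from the other arrays, so their p-values are no separate support for a call. Only 3 mice per diet limit the precision, with SEs of 0.17 to 0.45 for the member probes, and in bulk tissue fewer cells of a type and less RNA per cell cannot be told apart.

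Of the 13 member probes tested, 6 were called lower (12.6% of all tested probes were) and 1 higher, and the remaining 6 did not pass. The probes called lower belong to Cd3d, Cd3g, Cd2 (both probes), Cd6 (3′ probe) and Nkg7 (internal probe), and the probe called higher is the internal probe of Cd6. These same 7 probes were those whose values did not overlap between the diets (44.3% of all tested probes did not overlap, 18.6% in the lower and 25.7% in the higher direction). Of the 6 lower probes, 3 had been tested only through the control diet (Cd3g and the internal probes of Cd2 and Nkg7), where they were bright, so these 3 say less than the count. Among the 10 member probes well above background on all 6 arrays, 3 were lower (Cd3d and the 3′ probes of Cd2 and Cd6) and 1 higher, where 9.66% of all probes that bright were lower and 14.5% higher. Both Cd8a probes were too dim to be tested. The median of the 13 tested probes was -0.36.

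**Figure D1:**
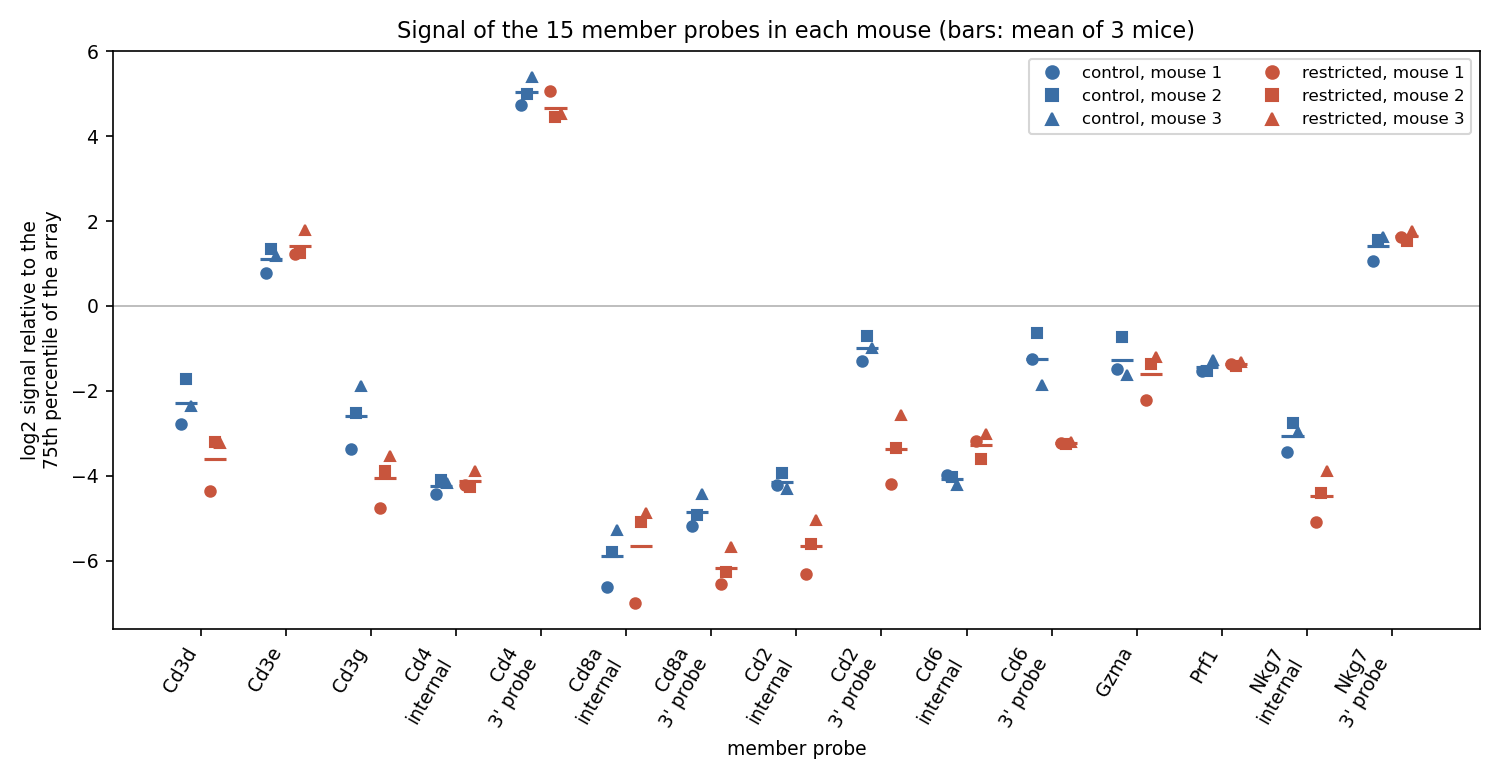
Signal of the 15 member probes, as log2 relative to the array's 75th percentile (vertical axis), in each of the 3 control mice (blue) and 3 restricted mice (red), with bars at the means. The restricted values lie below the control values without overlap for Cd3d, Cd3g, both Cd2 probes, the 3′ probes of Cd6 and Cd8a and the internal probe of Nkg7, and above them for the internal probe of Cd6, and restricted mouse 1 is often the lowest point.

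Among the CD3 chains, Cd3d and Cd3g fell while Cd3e, which encodes the chain shared by both kinds of CD3 dimer, did not pass the test. Cd3d (mm9 chr9:44794171-44794402, plus strand) read -2.77, -1.71 and -2.35 in control mice 1 to 3 and -4.37, -3.21 and -3.22 in restricted mice 1 to 3. Every restricted mouse lay below every control mouse, and restricted mouse 1 lay more than 1 log2 unit below the other restricted mice. The difference was -1.33 ± 0.40 (SE, n = 3 mice per diet, limma's adjusted p = 0.0471), 2.51-fold lower, and -2.09 in the slide-block fit (adjusted p = 0.0227). The call ended in 10 of 20 alternatives, among them leaving out any 1 of the 6 mice (adjusted p 0.0528 to 0.141) and normexp background correction (-0.45, adjusted p = 0.200).

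Cd3g (mm9 chr9:44777868-44777927, minus strand) read -3.37, -2.53 and -1.89 in the control mice and -4.75, -3.89 and -3.53 in the restricted mice. The diets did not overlap, although control mouse 1 lay only slightly above restricted mouse 3. The difference was -1.46 ± 0.45 (SE, n = 3 per diet, limma's adjusted p = 0.0499) and -2.15 in the slide-block fit (adjusted p = 0.0484), or 0.0747 on the first slide alone. The probe was well above background in 2 of the 3 restricted mice. On the dim array its value still exceeded the lowest signal that counted as well above background there. That value was therefore kept, and the measured fall was 2.75-fold. The call ended in 10 of 19 alternatives, among them leaving out control mouse 2 or 3 or any 1 restricted mouse (adjusted p 0.0512 to 0.131), and normexp background correction gave -0.40 (adjusted p = 0.291).

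Cd3e (mm9 chr9:44806828-44806887, minus strand) read 0.77, 1.35 and 1.19 in the control mice and 1.22, 1.26 and 1.79 in the restricted mice, which overlap. Its difference was 0.32 ± 0.24 (SE, n = 3 per diet, limma's adjusted p = 0.365), with a 95% interval of -0.25 to 0.89, and 0.12 with the slide as a block. The interval does not reach the differences of Cd3d and Cd3g.

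The ratio of probes within an array removes the scaling of the array. The log2 ratio of Cd3d to Cd3e was lower in every restricted mouse than in any control mouse, with a difference of -1.65 ± 0.36 (SE), and that of Cd3g to Cd3e likewise, with -1.78 ± 0.41. The ratio of Cd3d to Cd3g differed by 0.13 ± 0.41 and overlapped between the diets. Each of these genes has 1 probe, so the ratios compare probes. The Cd3e probe was much the brightest: log2 ratios to it had control means of -3.38 for Cd3d and -3.70 for Cd3g. The cause of this gap was not tested. In an exact 2-sided permutation test over the 6 mice the first 2 ratios had p = 0.1, the smallest that 3 against 3 allows (adjusted p = 0.133 over 8 pairs of probes, which were chosen after their values were seen), and Cd3d against Cd3g had p = 0.9.

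The 3 CD3 genes are neighbours on chromosome 9. In the RefSeq annotation of GRCm38.p6, another build than that of the probes, the starts of Cd3g and Cd3d lie 1355 bases apart on opposite strands, and that of Cd3e 27825 bases from Cd3d. Promoter sequences of that build were matched for 7 of the 10 genes (Cd3d, Cd3e, Cd3g, Cd8a, Gzma, Prf1 and Nkg7). The 250 bases before the start of each CD3 gene are shown since the probes of Cd3d and Cd3g moved together without that of Cd3e. Whether the promoters have a part in this was not tested. The ETS letters AGGAAG, on either strand, are in capitals.
Cd3g (GRCm38.p6 chr9:44980432-44980681, minus strand): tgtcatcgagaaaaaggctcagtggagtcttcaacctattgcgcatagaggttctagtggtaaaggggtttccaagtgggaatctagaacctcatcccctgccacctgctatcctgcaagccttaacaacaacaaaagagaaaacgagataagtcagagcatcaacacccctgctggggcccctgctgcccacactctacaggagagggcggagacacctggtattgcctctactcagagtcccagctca
Cd3d (GRCm38.p6 chr9:44981536-44981785, plus strand): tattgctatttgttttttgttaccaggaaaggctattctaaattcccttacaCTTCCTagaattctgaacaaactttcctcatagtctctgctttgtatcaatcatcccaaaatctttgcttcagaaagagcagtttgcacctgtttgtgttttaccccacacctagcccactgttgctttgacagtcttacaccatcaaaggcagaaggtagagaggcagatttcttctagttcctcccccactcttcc
Cd3e (GRCm38.p6 chr9:45009612-45009861, minus strand): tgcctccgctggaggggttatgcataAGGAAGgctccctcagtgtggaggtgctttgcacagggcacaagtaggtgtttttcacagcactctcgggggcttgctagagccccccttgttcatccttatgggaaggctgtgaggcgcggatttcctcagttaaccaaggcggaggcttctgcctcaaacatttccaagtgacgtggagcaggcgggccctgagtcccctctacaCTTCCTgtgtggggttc
The ETS letters stood 2 times in the Cd3e window, 1 time in that of Cd3d and 0 times in that of Cd3g, and in at least 1 place in 4 of the 7 matched members and 29.5% of all 32851 promoters of this length. The RUNX letters TGTGGT, read on both strands, stood in 3 of the 7 (Nkg7, Prf1 and Gzma) and in 14.05% of all promoters, and the E-box CAGCTG in 1 of the 7 (Prf1) and in 13.0%. The RUNX and ETS letters can share a base at their ends, but no matches overlapped in the 7 windows, and a match describes letters only.

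**Figure D2:**
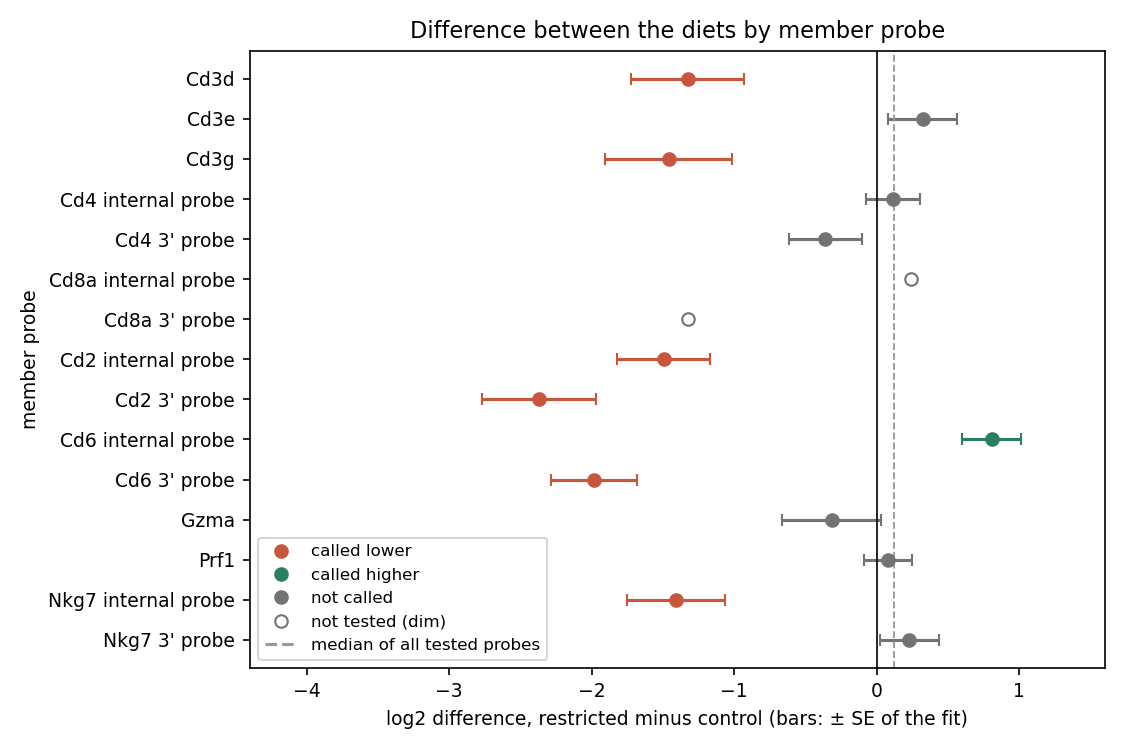
Difference between the diets for each member probe, as restricted minus control on the log2 scale (horizontal axis), with bars of ± 1 SE of the fit, open circles for the untested Cd8a probes and a dashed line at the median of all tested probes (0.12). Cd3d and Cd3g lie at -1.33 and -1.46 while Cd3e lies at 0.32, and the 2 probes of Cd6 lie on opposite sides of 0.

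The co-receptors gave no call. The 3′ probe of Cd4 (mm9 chr6:124814711-124814770, minus strand) read 4.72, 4.99 and 5.39 in the control mice and 5.06, 4.44 and 4.51 in the restricted mice. Restricted mouse 1 lay within the control range and the other restricted mice below it. The difference was -0.36 ± 0.26 (SE, n = 3 per diet, limma's adjusted p = 0.340) with a 95% interval of -0.96 to 0.24, and it turned to 0.03 with the slide as a block.

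The internal Cd4 probe (mm9 chr6:124817706-124817765, minus strand), which is printed as 10 spots on each array, read -4.42, -4.10 and -4.18 in the control mice and -4.22, -4.27 and -3.88 in the restricted mice. These overlap, and the difference was 0.11 ± 0.19 (SE, limma's adjusted p = 0.70), with a 95% interval of -0.34 to 0.56 and a value of 0.01 with the slide as a block. Repeat spots of this probe on 1 array had an SD of 0.18 to 0.34 between single spots. CD4 marks helper and regulatory T cells and, in mice, also some dendritic cells, and neither of its probes passed the test in either direction. The log2 ratio of the internal to the 3′ probe had means of -9.27 in the control mice and -8.79 in the restricted mice. The cause of this wide gap was not tested, so the probes are not taken as agreeing readings of Cd4.

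Cd8a encodes the co-receptor of most cytotoxic T cells. Its internal probe (mm9 chr6:71323885-71323944, plus strand) was not well above background on any array, with -6.62, -5.79 and -5.28 in the control mice and -7.00, -5.09 and -4.89 in the restricted mice. The 3′ probe (mm9 chr6:71328911-71328970, plus strand), also printed as 10 spots, read -5.18, -4.91 and -4.44 in the control mice and -6.56, -6.27 and -5.68 in the restricted mice. It was well above background in control mice 2 and 3 and in no restricted mouse. In control mouse 1, 3 of 9 usable spots were well above background, against 9 of 10 in control mouse 2, 10 of 10 in control mouse 3 and 0 in each restricted mouse. Its diets did not overlap, and the measured means differed by -1.32, but because the restricted values are at background only a bound of at least 1.06-fold lower follows. For that bound each restricted array was given a floor, the weakest signal that counted as well above background on it, or the probe's own value where that was higher. Without the filter on dim probes the 3′ probe had an adjusted p of 0.0342 and the internal probe one of 0.812 (limma). Cd8b1, which encodes the partner chain of CD8 alpha, was as dim: its probe was well above background in 2 control mice and in no restricted mouse.

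Cd2, an adhesion receptor of T cells and NK cells that binds CD48 in mice, was called lower on both of its probes. The internal probe was tested only through the control diet, so its call is no second support. The 3′ probe (mm9 chr3:101079831-101079890, minus strand) read -1.30, -0.71 and -0.99 in the control mice and -4.18, -3.35 and -2.57 in the restricted mice. All restricted mice lay at least 1 log2 unit below all control mice, with the lowest value in restricted mouse 1. The difference was -2.37 ± 0.40 (SE, n = 3 per diet, limma's adjusted p = 0.00586), 5.17-fold lower, and -3.18 in the slide-block fit (adjusted p = 0.00492). It was called under all 20 alternatives tried for it, of which the slide block and the first slide alone rest on restricted mouse 1, with values of -3.18 to -1.27 and adjusted p of 0.00119 to 0.0268.

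The internal Cd2 probe (mm9 chr3:101083802-101086981, minus strand) read -4.21, -3.94 and -4.32 in the control mice and -6.31, -5.60 and -5.04 in the restricted mice. It is printed as 10 spots, of which 8 to 10 per array were left without outlier spots. Among those, the lowest control spot, at -4.55, lay above the highest restricted spot, at -4.65. The fitted difference was -1.49 ± 0.33 (SE, limma's adjusted p = 0.0155) and -2.16 in the slide-block fit (adjusted p = 0.00884). It was not well above background in any restricted mouse, so the fall is bounded as at least 1.71-fold. Normexp background correction (-0.04, adjusted p = 0.891), the deposited value table (-0.99, adjusted p = 0.131) and leaving out control mouse 2 (adjusted p = 0.0597) each ended the call.

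**Figure D3:**
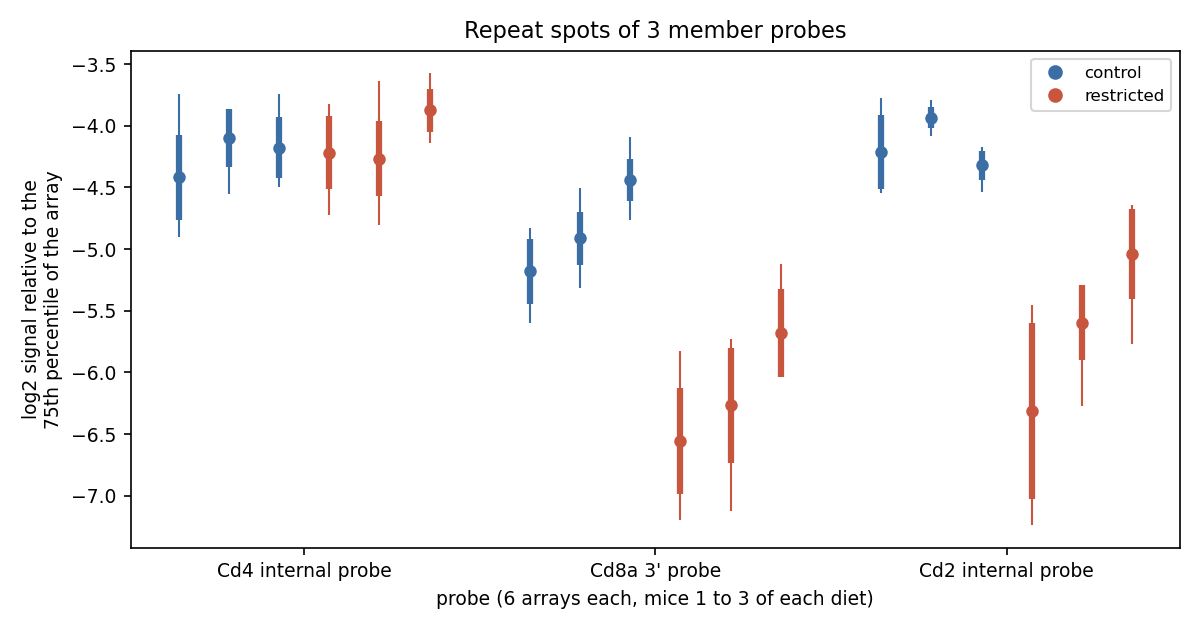
Repeat spots of the internal Cd4 probe, the 3′ Cd8a probe and the internal Cd2 probe on each of the 6 arrays (blue control, red restricted), on the same log2 scale. Points are means over 8 to 10 spots, outlier spots left out, thick bars ± 1 SD between spots and thin lines the range. The restricted ranges of Cd2 lie below the control ranges while those of Cd4 overlap.

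Cd6, a scavenger-type receptor of T cells that binds CD166, gave opposite calls on its 2 probes. The 3′ probe (mm9 chr19:10863829-10863888, minus strand) read -1.25, -0.64 and -1.85 in the control mice and -3.23, -3.26 and -3.20 in the restricted mice. The restricted mice were nearly equal, with an SD of 0.03, and all lay below the control mice, whose SD was 0.61. The difference was -1.98 ± 0.30 (SE, n = 3 per diet, limma's adjusted p = 0.00387), 3.95-fold lower, and -1.98 in the slide-block fit (adjusted p = 0.0364). Of its 20 alternatives only the first slide alone ended the call (adjusted p = 0.0635).

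The internal Cd6 probe (mm9 chr19:10867422-10868678, minus strand) read -3.99, -4.02 and -4.21 in the control mice and -3.18, -3.60 and -3.02 in the restricted mice. All restricted mice lay above all control mice, and the probe was well above background on all 6 arrays. The difference was 0.81 ± 0.21 (SE, n = 3 per diet, limma's adjusted p = 0.0278), 1.75-fold higher, and 0.89 with the slide as a block, where it was not called (adjusted p = 0.115). This call ended in 10 of 19 alternatives, among them leaving out any 1 mouse except restricted mouse 2 (adjusted p 0.0561 to 0.0831), while the value stayed between 0.46 and 0.97.

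Opposite calls on 2 probes were rare on this array. Of 2971 genes with exactly 2 tested probes, 508 had both called and 536 had 1 called. Calls in opposite directions were found in 11, Cd6 among them. These are 0.37% of all such genes and 1.05% of the 1044 with at least 1 call, and only genes with both called could oppose. The gap between the differences of its probes, 2.79 ± 0.34 (SE) as a ratio within arrays, was wider than in 99.1% of those genes, whose median gap was 0.19. The same share was 97.2% for Nkg7 and 79.8% for Cd4, and Cd2 has no such rank because its internal probe was at background in all restricted mice. Which transcripts of Cd6 each probe reads was not tested.

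Of the granule genes, Gzma and Prf1 did not pass the test. Gzma (mm9 chr13:113884035-113884094, minus strand), which encodes the protease granzyme A, read -1.48, -0.73 and -1.63 in the control mice and -2.21, -1.37 and -1.21 in the restricted mice, and these overlap. Its difference was -0.32 ± 0.35 (SE, n = 3 per diet, limma's adjusted p = 0.538) with a 95% interval of -1.13 to 0.50, so that a fall by about the size of that of Cd3d is only just outside it. With the slide as a block it was -0.93 (adjusted p = 0.185), from restricted mouse 1, which had the lowest value of the 6. Prf1 (mm9 chr10:60766941-60767000, plus strand), which encodes perforin, read -1.54, -1.52 and -1.26 in the control mice and -1.36, -1.41 and -1.31 in the restricted mice. Its 6 values spanned less than those of any other tested member, and the difference was 0.08 ± 0.17 (SE, limma's adjusted p = 0.758), with a 95% interval of -0.31 to 0.47.

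Nkg7, a membrane protein of cytotoxic granules, was called on 1 of its 2 probes. The internal probe (mm9 chr7:50693148-50693207, plus strand) read -3.45, -2.75 and -2.96 in the control mice and -5.10, -4.41 and -3.88 in the restricted mice, with no overlap. Its difference was -1.41 ± 0.34 (SE, n = 3 per diet, limma's adjusted p = 0.0229) and -2.04 in the slide-block fit (adjusted p = 0.0169). It was dim in 1 restricted mouse, where its own value exceeded the floor and was kept, and the measured fall was 2.66-fold. Normexp background correction ended the call (-0.27, adjusted p = 0.386), as did leaving out control mouse 2 (adjusted p = 0.0818), control mouse 3 (0.0504) or restricted mouse 2 (0.0644). The 3′ probe (mm9 chr7:50693530-50693589, plus strand) read 1.07, 1.54 and 1.62 in the control mice and 1.62, 1.53 and 1.77 in the restricted mice. These overlap, with a difference of 0.23 ± 0.21 (SE, limma's adjusted p = 0.448) and a 95% interval of -0.25 to 0.71. The ratio of the internal to the 3′ probe was lower in every restricted mouse than in any control mouse, with a difference of -1.64 ± 0.33 (SE, exact permutation p = 0.1, the smallest possible).

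**Figure D4:**
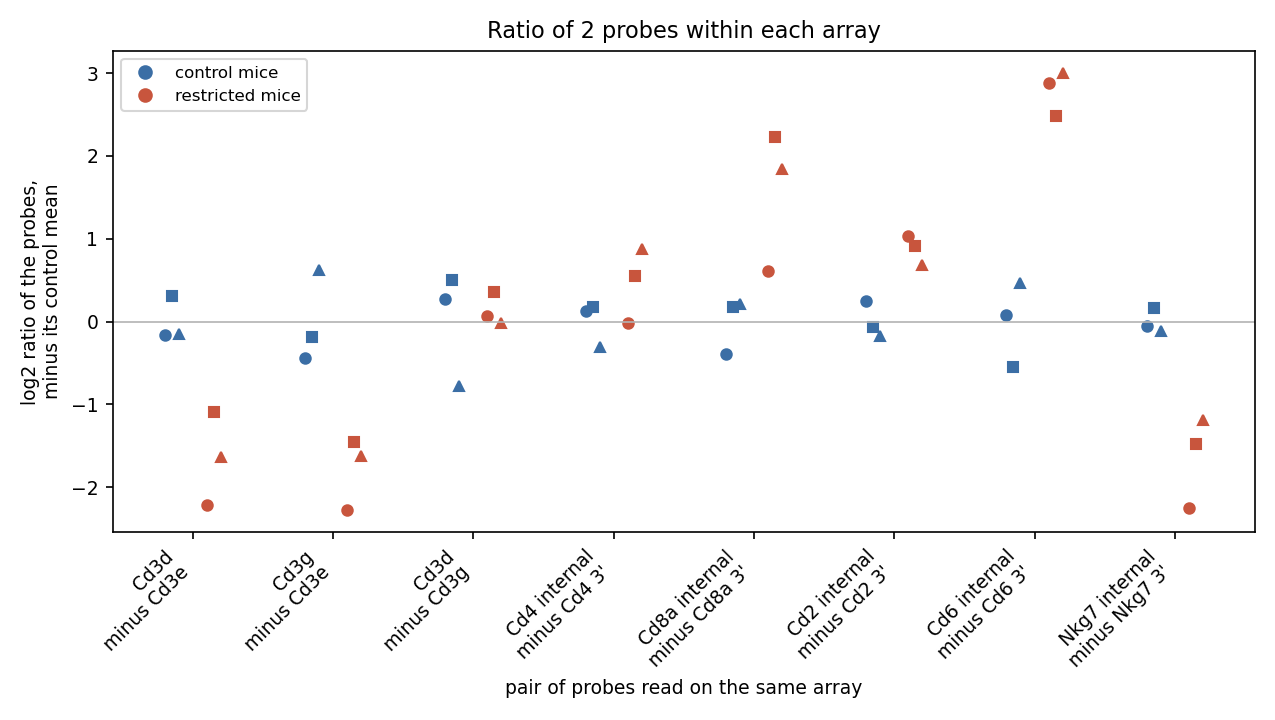
Log2 ratio of 2 probes read on the same array, minus its mean over the control mice (vertical axis), for 8 pairs of member probes in each control (blue) and restricted (red) mouse. The diets separate for Cd6 (2.79), Nkg7 and both ratios to Cd3e and overlap for Cd3d against Cd3g and for the Cd4 probes, while the Cd8a and Cd2 pairs hold a probe at background in all restricted mice and are not read.

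Genes that act with the members were read by their brightest probe, a measure by which 12.7% of all 19613 genes tested were called lower and 14.4% higher. Counts of genes well above background on all arrays, here and in later lists, stand against shares by probe of 9.66% lower and 14.5% higher. Of 27 genes of T cell receptor signalling and accessory receptors, 20 were tested, 9 fell and 1 rose, with a median of -0.88. Of the 16 well above background on all arrays, 7 fell and 1 rose, while Trat1, Ubash3a and Cd96 were above background on no array. Rasgrp1, which activates Ras downstream of the receptor, fell by 2.64 on the log2 scale (SE 0.28, limma's adjusted p = 0.001), and Ptpn22, a phosphatase of lymphoid and myeloid cells, fell by 2.68 (SE 0.37, adjusted p = 0.0028). Ptpn22 read -0.96, -0.21 and -1.69 in the control mice and -3.86, -3.75 and -3.30 in the restricted mice, with no overlap. The adaptor Grap2, dim in all restricted mice, was at least 1.19-fold lower (adjusted p = 0.00607). Genes of this and the later lists given as at least some fold lower were tested only through the control diet. Their p-values rest on restricted values at background and do not speak for a fall beyond the bound.

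The kinases and the zeta chain next to the receptor were not called lower. Zap70 rose, from 1.55, 1.72 and 1.30 in the control mice to 2.58, 2.06 and 2.15 in the restricted mice. Its difference was 0.74 ± 0.21 (SE, n = 3 per diet, limma's adjusted p = 0.0422), while a second probe of the gene measured 0.78 and was not called. Its call, the only one in the higher direction among these genes, ended without control mouse 1 or 2, without any 1 restricted mouse, with quantile scaling, without the filter on dim probes and on the first slide alone. Lck measured -0.91 (adjusted p = 0.0745), the adaptor Lat -0.77 (adjusted p = 0.0814) and the zeta chain gene Cd247 0.45 (adjusted p = 0.284), with overlap between the diets in each.

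Of 24 granule protease and killer cell receptor genes, 23 had a probe, 12 were tested and 4 fell, with a median of -1.04. Of the 9 well above background on all arrays, 2 fell. Gzmc, Klrk1, Ncr1, Eomes and Cd160 were above background on no array. Fasl, the ligand of the death receptor Fas, and Cst7, a cystatin of cytotoxic and myeloid cells, were dim in all restricted mice. They were tested only through the control diet. Fasl was at least 1.55-fold lower (limma's adjusted p = 0.000314) and Cst7 at least 1.33-fold lower (adjusted p = 0.0285). Klrd1, the CD94 chain of NK cell receptors, fell by 2.36 (SE 0.32, adjusted p = 0.00259), and the chemokine Ccl5 fell by 1.49 (SE 0.36, adjusted p = 0.0226). Gzmb measured -0.92 (adjusted p = 0.0589) and Gzmk 0.64 (adjusted p = 0.0732), so none of the granzymes given here passed. The count of 4 was 2 without control mouse 2, restricted mouse 1 or restricted mouse 2, and 7 without control mouse 1.

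All 9 genes of granule release were tested, and 3 fell, with a median of -0.26. Of the 7 well above background on all arrays, 2 fell. Srgn, the proteoglycan core on which granule contents are stored in many blood cells, fell by 3.02 (SE 0.49, limma's adjusted p = 0.00519). Unc13d, which primes granules for fusion, fell by 1.57 (SE 0.26, adjusted p = 0.00536). The fusion protein gene Stx11, dim in all restricted mice and tested only through the control diet, was at least 2.03-fold lower (adjusted p = 0.00295).

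Of 24 genes of helper and regulatory T cells and of homing, 19 were tested, 11 fell and 1 rose, with a median of -1.13, and of the 9 well above background on all arrays 3 fell and 1 rose. Ccr7, a homing receptor of T cells and dendritic cells, read -0.10, 0.90 and -0.02 in the control mice and -3.16, -2.61 and -1.95 in the restricted mice, with no overlap. It fell by 2.84 (SE 0.38, limma's adjusted p = 0.00248). Tnfrsf18, the receptor GITR, was dim in 1 restricted mouse and tested only through the control diet, so its call says less. With that dim array at its floor it was 9.32-fold lower (limma's adjusted p = 0.000441, from the values as measured). Havcr2, the receptor TIM-3 of T cells and myeloid cells, was dim in all restricted mice and at least 11.5-fold lower (adjusted p = 0.00204). Foxp3, the factor that defines regulatory T cells, measured -0.59 (adjusted p = 0.161).

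**Figure D5:**
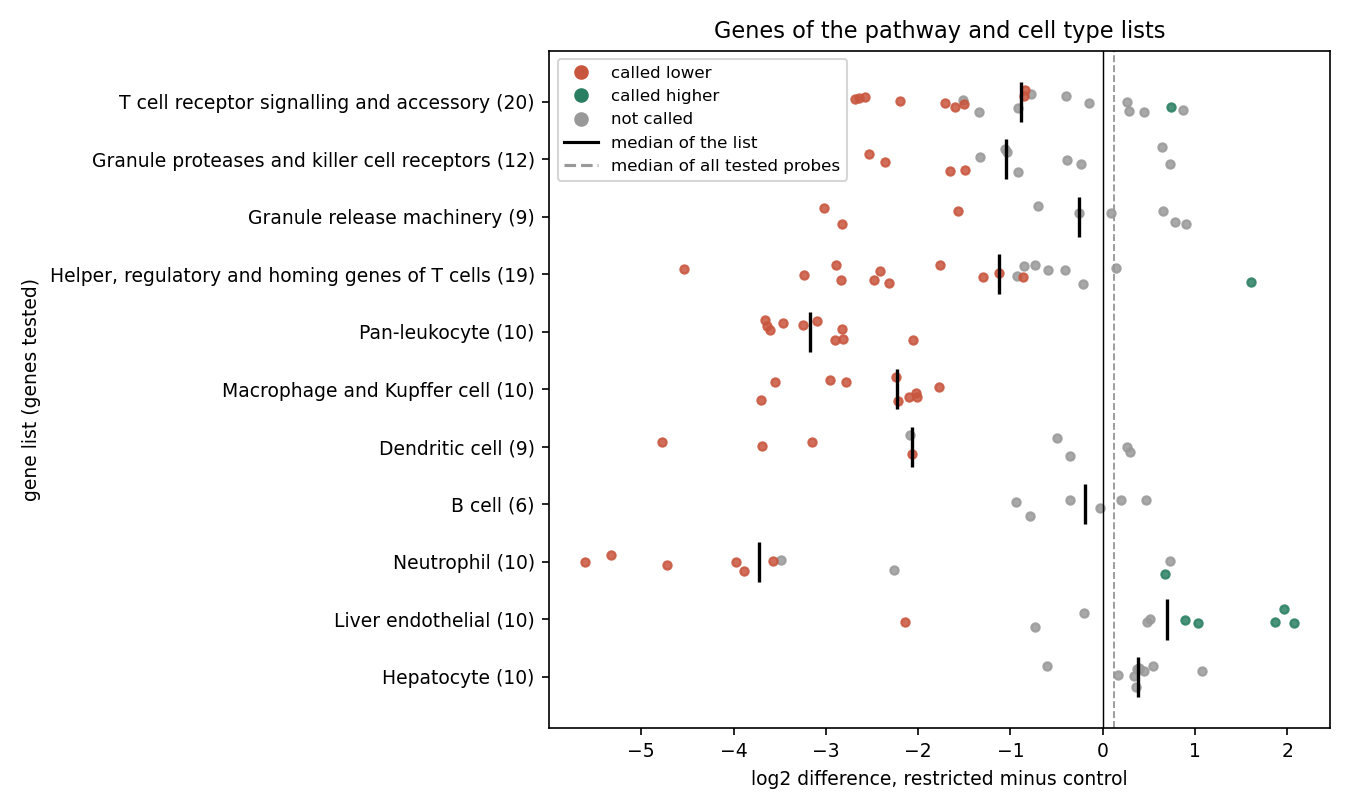
Difference between the diets, restricted minus control on the log2 scale, for each tested gene of the pathway and cell type lists (number tested in brackets), with a black line at each list's median and a dashed line at the median of all tested probes (0.12). The lists of T cell genes hold genes on both sides of 0, while all 10 pan-leukocyte and all 10 macrophage genes, each by its brightest probe, lie below -1.

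Markers of other cell types moved with the diets in the same arrays, and their part in the results above was not tested. All 10 pan-leukocyte genes fell, with a median of -3.17, and their summed signal, on the log2 scale relative to the 75th percentile, was 6.33 to 6.64 in the control mice and 2.61 to 3.53 in the restricted mice. Laptm5 fell by 3.60 and Rac2 by 3.09. The count of 10 again takes each gene's brightest probe. Other tested probes were called lower for Laptm5 (-3.70) and Cd48 (-2.38), while that of Arhgdib measured -0.04 and was not called. All 10 macrophage and Kupffer cell genes fell too, with a median of -2.23 and summed signals of 7.70 to 8.12 and 5.18 to 5.68, among them Marco, which fell by 3.55, and Vsig4, which fell by 2.78. Other tested probes were called lower for Adgre1 (-1.50) and Csf1r (-2.11), while a further Csf1r probe measured 0.66 and was not called. The summed signal of the T cell receptor signalling list was 3.11 to 3.36 in the control mice and 2.84 to 3.09 in the restricted mice, and that of the granule protease and killer cell list 2.76 to 3.28 and 2.07 to 2.76. Zap70 alone made up 55.2% to 70.3% of the first sum in the restricted mice (24.1% to 34.0% in the control mice) and Cd244 52.4% to 63.2% of the second (35.7% to 49.5%), so these sums follow single probes. Of 10 neutrophil genes 6 fell and 1 rose (median -3.73, summed signal 4.95 to 6.75 against 2.29 to 4.78), with Camp, which fell by 3.57, and Ltf, which was at least 26.4-fold lower. Of the 6 neutrophil genes well above background on all arrays, 3 fell and 1 rose. Restricted mouse 1 stood apart from the other restricted mice in some of these genes, with 4.03 against -0.03 and 0.28 for S100a9 and 0.55 against -4.50 and -4.65 for Retnlg, and it is also the lone restricted mouse behind the slide-block values.

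Of 9 dendritic cell genes tested 4 fell (median -2.07, summed signal 6.95 to 7.54 against 7.17 to 7.77), with Itgax, which fell by 4.77, and Batf3, which fell by 3.15. The sum of that list rests mostly on Siglech, whose probe was saturated on all arrays, and Xcr1 was above background on no array. Of 6 B cell genes tested 0 were called by limma (0 also at an unadjusted p under 0.05; median -0.19, summed signal 0.75 to 1.42 against 0.70 to 1.37). The 6 differences ran from -0.93 (Fcrla, adjusted p = 0.136) and -0.79 (Cd79b, adjusted p = 0.278) to 0.20 (Cr2) and 0.46 (Fcer2a), and Blk was above background on no array. Of 10 liver endothelial genes 5 rose and 1 fell (median 0.70, summed signal 4.77 to 5.34 against 5.30 to 5.73), with Oit3, which rose by 2.08, and Fcgr2b, which fell by 2.14.

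The labelled tissue was checked by 10 hepatocyte genes, all of which were well above background on all 6 arrays and 5 of which were saturated on all. Saturated probes cannot show a difference in level, and scaling sets their values, so little can be read from the 0 calls by limma (2 at an unadjusted p under 0.05), the median of 0.38 and the summed signals of 9.94 to 10.5 in the control mice and 10.3 to 10.6 in the restricted mice. Apoa1 measured -0.61 (adjusted p = 0.0959) and Cps1 1.07 (adjusted p = 0.102).

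The genes whose pattern over the 6 arrays lay closest to that of the CD3 probes were found by the root mean square distance between centred log2 values, over 13789 genes with an ordinary symbol. The mean centred profile of Cd3d, Cd3e and Cd3g was -0.12, 0.70 and 0.65 in the control mice and -0.96, -0.28 and 0.01 in the restricted mice, so that it overlapped between the diets. The closest were Slc12a8 at a distance of 0.065, Sp110 at 0.078, Lck at 0.082, Pcolce at 0.086, Tead2 at 0.086 and Fxyd2 at 0.10. Lck was thus the third closest by this measure, and none of the 6 was called (differences of -0.97 to -0.75, limma's adjusted p of 0.0572 to 0.171). The mean profile differed by -0.82 and joins the falls of Cd3d and Cd3g with the 0.32 of Cd3e. It is the profile of no single CD3 probe, so closeness to it does not tie a gene to the CD3 chains.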

How the data were processed

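Each of 6 mice gave 1 single-colour Agilent array (design 026655). The deposited intensity values are processed signals that, per the file headers, Agilent Feature Extraction 10.7.3.1 made with background subtraction and with spatial and multiplicative detrending, whereas version 9.3.2.1 is the one in the submitters' processing notes. The values tabulated for the series held the mean processed signal of a probe within 0.1% for 99.67% to 99.77% of probes, on a linear scale with column medians of 27.5 to 52.1 and no centring.

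From 43020 non-control spots per array, 127 to 251 outlier spots were left out, log2 was taken, repeat spots of each probe were averaged, and values were taken relative to the 75th percentile of the array. A probe was well above background on an array if more than a share of 0.5 of its usable spots were. The diets were compared with limma 3.58.1 (in R 4.3.3 with data.table, version 1.17.8) over all tested probes, after a check of the fit on simulated data. Genes were named by the array files, with symbols updated through the RefSeq accession for 26055 probes. All member probes are given. From each pathway list up to 4 called genes with the smallest p in each direction are named, from lists of other cell types the 2 genes with the smallest p, called or not, except for a few genes not reported here, and Lck, Lat, Cd247, Gzmb, Gzmk, Foxp3, Cd8b1, Siglech, Cd244, S100a9, Retnlg, Cr2, Fcer2a and the genes above background on no array were added after their values were seen. Other probes of Laptm5, Cd48, Arhgdib, Adgre1 and Csf1r were also given after their values were seen. Members and lists were chosen with earlier results of these data known.

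Alternatives were normexp background correction, with an offset of 50 that shrinks differences of dim probes, quantile and median scaling, the deposited values of the series, other filters on dim probes, array weights, trend and robust moderation, slide or mouse number as a block, the first slide alone, 1 probe per gene, other thresholds and leaving out each mouse. Same-numbered mice of the 2 diets had correlations of deviations of 0.386, 0.0019 and 0.484, so the numbers were not taken as pairs.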

Additional observations from a re-analysis of the deposited data

How the results depend on the processing

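The number of probes called, 6456, was 10068 with array weights, 3548 with the slide as a block, 2708 on the first slide alone and 3039 at an adjusted p under 0.01, and 3961 to 7041 when 1 mouse was left out, with 3961 without control mouse 2 and 4031 without restricted mouse 2. The number of member probes called lower, 6, was 2 with normexp background correction, 3 among probes well above background on all arrays and 2 at an adjusted p under 0.01. It was 2 to 5 when 1 mouse was left out, with 2 without control mouse 2 and 3 without control mouse 3 or restricted mouse 2. The 9 genes of T cell receptor signalling called lower became 4 with normexp and 3 at 0.01, and 5 to 9 when 1 mouse was left out, with 5 without control mouse 2. The 4 genes of granule proteases and killer receptors became 2 with normexp, 2 among probes well above background on all arrays, 7 with array weights, 8 with the replicate block, 2 at 0.01 and 7 at 0.10, and 2 to 7 when 1 mouse was left out. The 11 genes of helper and homing function became 5 with normexp, 3 among probes well above background on all arrays and 7 at 0.01, and 8 to 11 when 1 mouse was left out. The 3 of granule release became 2 with normexp, 2 among probes well above background on all arrays, 2 with the slide as a block and 2 on the first slide alone, and 3 to 4 when 1 mouse was left out. The cause of these changes was not tested, except that stricter filters test fewer genes and that the offset of normexp shrinks dim probes by construction. With mouse number as a replicate block, 8080 probes and 6 member probes lower were called, and no call of a member probe changed. Whether the numbers pair the mice is not settled. Mice 1 and 3 correlated best with the mouse of the same number (0.39 and 0.48). Control mouse 2 correlated best with restricted mouse 1, at 0.12. The sign turned for the 3′ probe of Cd4, to 0.0275 with the slide as a block and on the first slide alone, and for the internal probe of Cd4, whose value was -0.0099 to 0.185 when 1 mouse was left out, with -0.0099 without restricted mouse 3. The median of all tested probes was 0.12 and was 0.16, 0.08, 0.21 and 0.12 with normexp, quantile scaling, median scaling and the value table.

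Dim signal limits these results: in all restricted mice both Cd8a probes and the internal Cd2 probe lay at background, so that no more than a bound holds, and the Cd3g and internal Nkg7 probes were dim in 1 restricted mouse.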
